A study of Mus musculus with 2 samples.

Results

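The Rab GTPase genes are described here in mouse gastrocnemius, a calf muscle, as measured by long-read RNA sequencing. Members were all annotated genes whose symbol is Rab followed by a number and an optional letter, and their reads were summed per gene. Of 59 such genes in the GENCODE M21 annotation, 44 had reads in at least 1 library, among 14900 annotated genes with reads. Reads of 41 members were found in both libraries, 43 in replicate 1 and 42 in replicate 2. Summed over the libraries, 31 members had at least 10 reads, 13 had from 1 to 9 and 15 had none.

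Rab proteins are small GTPases that switch between a GTP-bound form on membranes and a GDP-bound form that can be drawn into the cytosol. Exchange factors load GTP, GTPase-activating proteins end the active state, and effectors such as tethers and motor adaptors bind the active form. Each Rab marks particular membranes of the secretory, endosomal or lysosomal routes, and in skeletal muscle several act in the movement of the glucose transporter GLUT4 to the plasma membrane.

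The series holds 1 group of 2 libraries from gastrocnemius of male B6CASTF1/J mice (first-generation hybrids between the C57BL/6J and CAST/EiJ strains), aged 18 to 20 months. Total RNA input was 2 µg a library, to which SIRV and Ambion mix 1 spike-ins were added. The labels call the libraries biological replicates 1 and 2 and give them separate biosamples but 1 donor identifier. Whether a biosample is 1 mouse or a pool is not given in the sources used here, and allele of origin was not analysed here. With no second condition, the libraries can only be compared with each other, and a p-value below compares the reads of these libraries and not conditions.

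The tables held 1509380 reads in replicate 1 and 1173233 in replicate 2. Levels are counts per 1000000 reads of the table (CPM), in which each long read is taken as 1 molecule, so that genes are compared without division by length. Copies of a molecule cannot be told from separate molecules, and how far reading depends on length within a library was not tested. Levels of genes of different length are thus compared only roughly. A count of 0 allows up to 3 reads, which is 1.99 CPM in replicate 1 and 2.56 CPM in replicate 2. Atp2a1, the calcium pump of fast muscle fibres, had 228292 and 205059 reads, which marks fast muscle but does not identify the gastrocnemius. All 9 slow-fibre markers checked were higher in replicate 2, and their summed level was 337 CPM in replicate 1 and 4682 CPM in replicate 2. Of the markers of other cell types tested, 3 of 7 of endothelium, 3 of 4 of smooth muscle, 1 of 4 of adipocytes and 1 of 3 of Schwann cells and nerve were called higher, 1 of 6 of blood and immune cells was called lower, and 0 of 5 of fibroblasts were called. In bulk tissue, fewer cells of a type and less RNA per cell cannot be told apart. Between the libraries, log2 ratios also rose with transcript length, from a median of -0.53 in the shortest of 20 length bins to 0.75 in the longest. The part of the marker and length differences in the Rab values was not tested, except where a ratio relative to genes of like length is given.

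Rab genes together held 4601 reads in replicate 1, which is 0.305% of the library (95% exact Clopper-Pearson interval 0.296 to 0.314), and 3744 reads in replicate 2, which is 0.319% (0.309 to 0.329). The mean was 0.312% ± 0.0101 (SD, n = 2). Among members with reads, the median level was 13.6 CPM, against 6.68 CPM over all annotated genes with reads. All members are annotated as protein-coding, whereas the genes they are set against were not limited to protein-coding ones. A few members carried most of the family's reads. The 5 most read, Rab10, Rab2a, Rab12, Rab7 and Rab28, held 53.6% of the family's reads as the mean of both libraries, and the 12 most read held 84.1%. At a mean of 10 CPM or more there were 24 members, and at 100 CPM or more there were 10. These 10 cover 6 of the 7 roles into which the family was sorted: the surface and GLUT4 (Rab10, Rab14), the ER and Golgi (Rab2a, Rab18, Rab1b), the late endosome and lysosome (Rab12, Rab7), the early endosome (Rab21), the recycling endosome (Rab11b) and the cilium (Rab28).

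**Figure D1:**
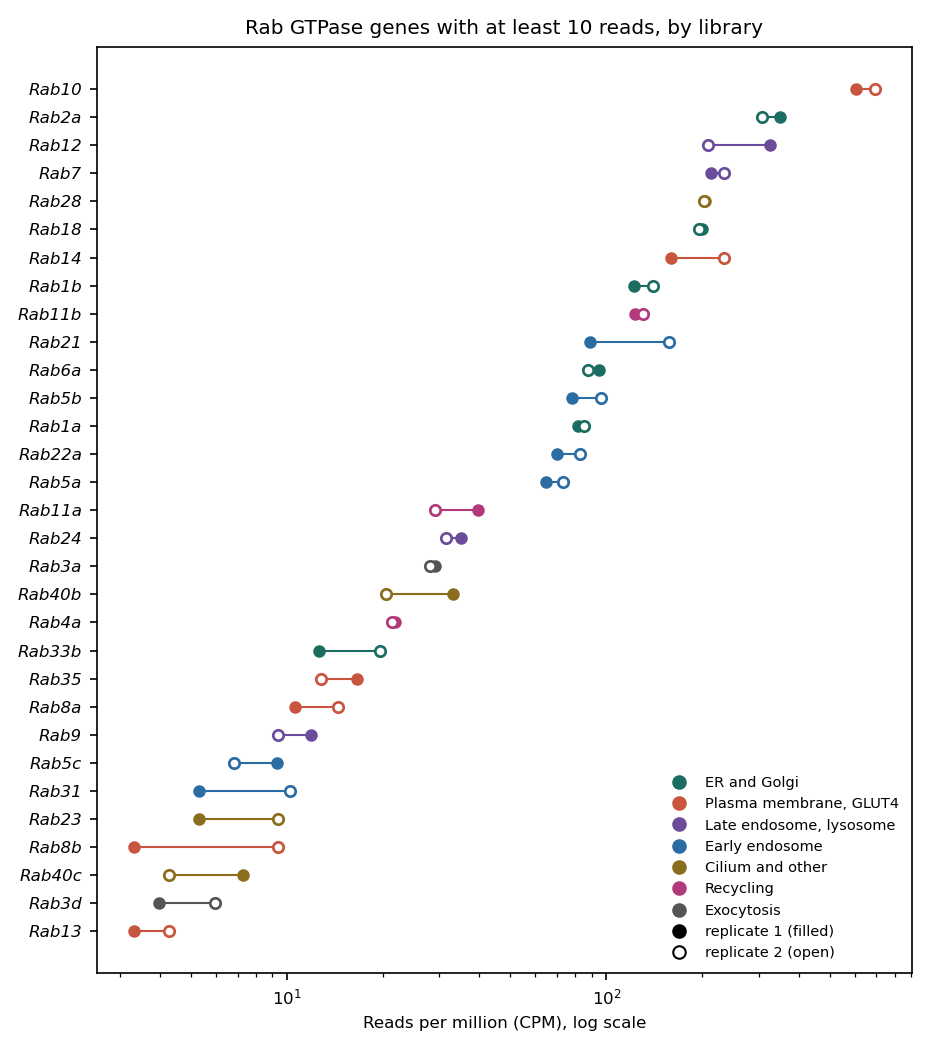
Level of each of the 31 Rab genes with at least 10 reads, in CPM on a log scale, with replicate 1 as filled and replicate 2 as open points joined by a line, coloured by role. Rab10 stands at the top at 604 and 694 CPM, and Rab13 at the bottom at 3.31 and 4.26 CPM.

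The coding sequences of the members with an annotated transcript share features. The symbols by which members were chosen name a gene family, so shared sequence is no finding separate from that choice. A run of 7 codons with the third base of each left free, TGNGANACNGCNGGNCANGAN, where N is any base, was the window of the Rab10 coding sequence that most members held in frame, 34 of 41 with reads and a coding sequence. It lies in the part that encodes switch 2, a loop that changes shape when GTP is hydrolysed. The sequences are GENCODE M21 transcripts (GRCm38, mm10), searched on the sense strand. Over all 21901 protein-coding genes of the annotation, 68 (0.310%) held the run anywhere in a protein-coding transcript, and 49 of those 68 were annotated members. The window was picked for the count of members that hold it, so these counts describe the run and are no separate test of it. The search over all genes was also not limited to the reading frame, unlike that in the members. Rab28, Rab24, Rab29, Rab20, Rab7b, Rab40b and Rab40c did not hold these letters. Rab proteins are anchored in membranes through lipids on cysteines near the carboxyl end. The last 5 codons before the stop held at least 1 cysteine codon in all 41 members and at least 2 in 33 of them. How many other genes hold such codons there was not counted. The last 15 coding bases of 11 of the 12 most read members (all but Rab18), and those of the less read transcript Rab28-201, are shown because the placing of these cysteine codons, in capitals, sets the members apart.
Rab10-201: aagagcaagTGCTGC
Rab2a-201: gggggaggcTGCTGT
Rab12-205: cacgtccgaTGCTGT
Rab7-205: gaaagcTGCagtTGT
Rab14-201: gaaggcTGTggcTGC
Rab1b-201: agcggtggcTGCTGC
Rab6a-201: ggcggcTGTtccTGC
Rab11b-201: TGCTGCcagagcctg
Rab21-201: TGCTGTtcctccggc
Rab5b-201: cagTGTTGTagcaac
Rab28-203: gtcTGTtcagtacag
Rab28-201: atgTGTgcagtgcag
Rab10, Rab2a, Rab12 and Rab1b end on a pair of adjacent cysteine codons, as did 12 of the 41 members. In Rab7, Rab14 and Rab6a another codon parts them, in Rab11b, Rab21 and Rab5b the pair is followed by further codons, and both Rab28 ends hold a single cysteine codon.

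Among Rabs of the plasma membrane and GLUT4 traffic, Rab10 was the most read member of the whole family. Rab10 (chr12:3247428-3309969, minus strand), which carries GLUT4 vesicles to the surface in response to insulin, had 912 reads in replicate 1 and 814 in replicate 2. Its levels were 604 and 694 CPM, 649 ± 63.3 CPM (SD, n = 2), which placed it at rank 105 among annotated genes. It stood 1.73 times above Rab2a, the next member, in replicate 1 and 2.26 times in replicate 2. Rab14 (chr2:35180205-35201120, minus strand), which acts between endosomes, the Golgi and GLUT4 compartments, had 241 and 275 reads, or 160 and 234 CPM. The other 4 genes of this role were far lower. Rab35, which acts in fast recycling, was at 16.6 and 12.8 CPM. Rab8a, a Rab tied to GLUT4 in muscle cells, was at 10.6 and 14.5 CPM, and its paralogue Rab8b at 3.31 and 9.38 CPM. Rab13, known from tight junctions and GLUT4 traffic in cultured muscle cells, had 5 reads in each library. The 6 genes summed to 798 and 969 CPM.

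Rabs of the ER and Golgi summed to 864 and 843 CPM, and Rab2a led them. Rab2a (chr4:8535644-8607778, plus strand), which works on membranes between the ER and the Golgi, had 527 and 360 reads, or 349 and 307 CPM. Rab18 (chr18:6733905-6794429, plus strand), a Rab of the ER and of lipid droplets, had 302 and 229 reads, or 200.1 and 195 CPM. Rab1b (chr19:5099205-5107072, minus strand) and its paralogue Rab1a, both needed for transport from the ER to the Golgi, were at 122 and 140 CPM and at 81.5 and 85.2 CPM. Rab1b thus took 59.9% of the reads of the pair in replicate 1 (interval 54.2 to 65.5) and 62.1% in replicate 2 (56.0 to 68.0), so it was the more read of the pair in both. Rab6a (chr7:100607410-100641268, plus strand), which acts in return transport through the Golgi, had 143 and 103 reads, or 94.7 and 87.8 CPM. No read was assigned to its paralogue Rab6b, which allows at most 3.52% of the pair's reads in replicate 2. Rab33b, a Golgi Rab that also binds an autophagy factor, was at 12.6 and 19.6 CPM, and the 6 genes of this role without reads were Rab6b, Rab19, Rab33a, Rab36, Rab39 and Rab39b.

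Rabs of the late endosome and lysosome were led by Rab12 and Rab7. Rab12 (chr17:66494512-66519729, minus strand), which directs some receptors to degradation and is a substrate of the kinase LRRK2, had 491 reads in replicate 1 and 245 in replicate 2, or 325 and 209 CPM. Rab7 (chr6:87999106-88045270, minus strand), the main Rab of late endosomes, lysosomes and autophagosome fusion, had 322 and 274 reads, or 213 and 234 CPM. Rab12 was thus above Rab7 in replicate 1 and below it in replicate 2. Rab24, an atypical Rab linked to autophagy, was at 35.1 and 31.5 CPM, and Rab9, which acts from late endosomes to the Golgi, at 11.9 and 9.38 CPM. Rab32 had 1 read, in replicate 1, and Rab38, its relative known from pigment cells, had none. The 9 genes summed to 593 and 489 CPM.

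Rabs of the early endosome were all read, 7 of 7, and summed to 319 and 429 CPM. Rab21 (chr10:115287084-115315594, minus strand), which moves integrins, had 134 reads in replicate 1 and 185 in replicate 2, or 88.8 and 158 CPM. Rab5b (chr10:128677175-128696264, minus strand), an early-endosome Rab that acts in vesicle fusion, had 118 and 113 reads, or 78.2 and 96.3 CPM. Its paralogue Rab5a was at 64.9 and 73.3 CPM and Rab5c at 9.28 and 6.82 CPM. Of the reads of these 3 paralogues, Rab5b held 51.3% (interval 44.6 to 57.9) and 54.6% (47.5 to 61.5), Rab5a 42.6% and 41.5%, and Rab5c 6.09% and 3.86%. The order Rab5b, Rab5a, Rab5c was the same in both libraries, with Rab5c far below the others. Rab22a, which sorts cargo in early endosomes, was at 70.2 and 82.7 CPM and its relative Rab31 at 5.30 and 10.2 CPM.

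Recycling Rabs summed to 186 and 187 CPM. Rab11b (chr17:33742484-33760530, minus strand), a Rab of the recycling endosome, had 185 and 153 reads, or 123 and 130 CPM, and its paralogue Rab11a had 60 and 34 reads, or 39.8 and 29.0 CPM. Rab11b held 75.5% of the reads of the pair in replicate 1 (interval 69.6 to 80.8) and 81.8% in replicate 2 (75.5 to 87.1), so it was the more read of the pair in both. Rab4a, a Rab of fast recycling, was at 21.9 and 21.3 CPM. Rab17 and Rab25, known from epithelia, had no reads.

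The cilium and other group was led by Rab28, and exocytosis Rabs were the lowest group. Rab28 (chr5:41624976-41708157, minus strand), a divergent Rab known from photoreceptors and cilia, had 307 and 238 reads, or 203.4 and 202.9 CPM, a mean of 203 ± 0.379 CPM (SD, n = 2). Rab40b and Rab40c, Rabs that form part of ubiquitin ligases, were at 33.1 and 20.5 CPM and at 7.29 and 4.26 CPM. Rab23, an inhibitor of Hedgehog signalling, was at 5.30 and 9.38 CPM. Rab3a, known for the release of synaptic vesicles, was the exocytosis Rab with the most reads, 44 and 33, or 29.2 and 28.1 CPM. Its paralogue Rab3d had 6 and 7 reads, Rab3b 1 read and Rab3c none. Rab27a, known from secretory and blood cells, had 1 and 3 reads, Rab27b, Rab37, Rab26 and Rab44 had none, and the 9 genes of the role summed to 34.5 and 36.7 CPM. The nerve markers Snap25 and Nefl had no reads, and Syt1 had 0.663 and 0.852 CPM. The 8 Schwann cell and nerve markers, 6 of which had reads, summed to 56.3 and 80.1 CPM, and the part of nerve RNA in the Rab3a value was not tested.

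**Figure D2:**
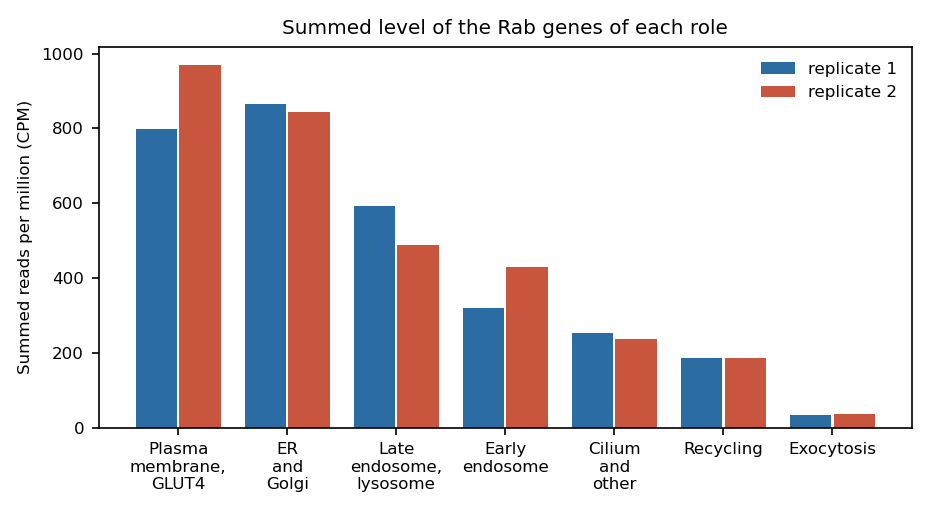
Summed CPM of the Rab genes of each role in replicate 1 and replicate 2, on an axis that starts at 0. The plasma membrane and ER and Golgi roles are the highest in both libraries, from 798 to 969 CPM, and exocytosis is the lowest at 34.5 and 36.7 CPM.

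In the order of levels, the range of Rab14 over the libraries, 160 to 234 CPM, covered those of Rab28 and Rab18 and overlapped that of Rab7. The ranges of Rab7, Rab28 and Rab18 did not overlap one another, with Rab7 the highest and Rab18 the lowest in both libraries. These ranges of 2 values leave out counting error, so they do not settle the order of the 3 genes. Rab28 and Rab18 were close, with 307 and 302 reads in replicate 1 and 238 and 229 in replicate 2. Coding sequences of paralogues were alike but not near-identical: 77.2% of aligned bases were identical between Rab1a and Rab1b, 75.2% between Rab11a and Rab11b, 76.5% between Rab5b and Rab5c, 77.4% between Rab8a and Rab8b, and 60.6% between Rab7 and Rab7b.

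No Rab gene was called different between the libraries. Of the 31 members tested, 0 were called higher and 0 lower in replicate 2 by Fisher's exact test, where a call needs a Benjamini-Hochberg adjusted p below 0.05 over all 9032 genes tested and at least a 2-fold difference. Over all genes tested, 8.24% were called higher and 2.04% lower. The count of members at an unadjusted p below 0.05 was 4, and no share over all genes was taken at that threshold. TMM scaling also gave 0 members higher and 0 lower, against 443 and 376 of the 9032 genes. DESeq2 scaling gave 0 and 0 as well, against 442 and 382. Log2 ratios set replicate 2 over replicate 1 and were taken on log2(CPM + 1), and their median was 0.09 in the members, with a range from -0.67 to 1.27, and 0.19 in all genes tested. The median size of the log2 ratio was 0.30 in the members and 0.47 in all genes tested, given as a description. By total reads, 17 members lay above 0 and 14 below, but with TMM scaling, which lowers every ratio by 0.20, the split was 12 and 19, so the direction over the family turned with the scaling.

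Without the fold minimum, 4 members had an adjusted p below 0.05, Rab12, Rab21, Rab14 and Rab10, against 21.4% of all genes tested. Rab12 was lower in replicate 2, at 325 and 209 CPM, with a log2 ratio of -0.64 (95% exact interval -0.87 to -0.42, Fisher's exact test, adjusted p = 1.77e-07). Rab21 was higher, at 88.8 and 158 CPM, with a log2 ratio of 0.82 (interval 0.50 to 1.16, Fisher's exact test, adjusted p = 7.36e-06). Rab14 was higher, at 160 and 234 CPM, with a log2 ratio of 0.55 (interval 0.30 to 0.81, Fisher's exact test, adjusted p = 0.000204). Rab10 was higher by little, with a log2 ratio of 0.20 (interval 0.06 to 0.34, Fisher's exact test, adjusted p = 0.0241), but with TMM or DESeq2 scaling its log2 ratio was 0.00085 or -0.0035 (Fisher's exact test, adjusted p = 1 with either). Rab2a, at -0.19 by total reads (Fisher's exact test, adjusted p = 0.189), came to -0.38 with TMM and -0.39 with DESeq2 scaling (Fisher's exact test, adjusted p = 0.00101 and 0.000885). These intervals cover counting error only, and the differences have no replicate check.

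Relative to genes of like annotated transcript length, Rab12 still had an adjusted p below 0.05, and Rab21, Rab14 and Rab10 no longer had one. The centred log2 ratio of Rab12 was -0.61 (Fisher's exact test, adjusted p = 9.38e-07), whereas those of Rab21, 0.25, Rab14, 0.26, and Rab10, -0.17, had adjusted p-values of 0.418, 0.230 and 0.105 by the same test. Rab18 and Rab11b, whose annotated transcripts are long at 6515 and 6109 bases, came out lower on this scale, at -0.71 and -0.58 (Fisher's exact test, adjusted p = 5.41e-07 and 0.00304), although their raw log2 ratios were -0.04 and 0.09. The length of these transcripts is in doubt in this muscle: all 7 unannotated Rab11b models that hold the last intron ended 4266 bases before the annotated end, and 15 of 16 such Rab18 models ended over 500 bases before it, with a median of 4249. The same holds for Rab21, of which 6 of 8 such models ended over 500 bases before the annotated end, with a median of 2497, so its centred ratio is in doubt too. In Rab10, Rab12, Rab14, Rab1b and Rab5b the median distance was 0 bases, and in all of these but Rab14 it was 0 in every such model. These are ends of models and not of single reads, and each model counts once. Models of annotated transcripts, which hold most reads, were left out. The distances thus neither bear out the annotated lengths nor give the true ones. Across the 31 members the rank correlation of annotated length and log2 ratio was 0.548, and across 8625 genes with a length it was 0.486; the points share both libraries, and no test was made. After centring, the members' median log2 ratio was 0.00.

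**Figure D3:**
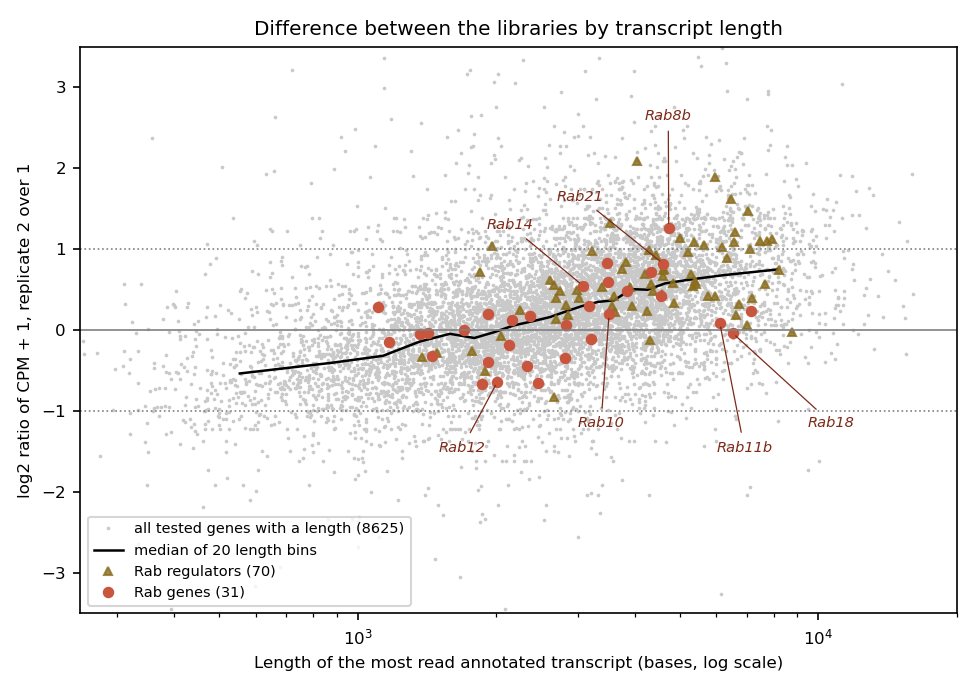
Log2 ratio of replicate 2 over replicate 1 against annotated transcript length on a log axis for the 31 Rab genes, 70 Rab regulators and all 8625 tested genes with a length, with the median of 20 length bins as a line and dotted lines at a 2-fold difference. Genes outside the plotted ranges are not drawn. Rab8b, with 5 and 11 reads, is the Rab gene farthest up at 1.27, and Rab12 and Rab21 lie on opposite sides of 0.

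Rab genes were read mostly as annotated transcripts. Annotated transcripts made up 89.6% of the members' reads in replicate 1 (interval 88.6 to 90.4) and 91.8% in replicate 2 (90.9 to 92.7), against 64.2% and 60.8% over all annotated genes. Models with an unannotated splice site held 2.89% and 2.40% of the members' reads, against 18.9% and 22.3% over all annotated genes. The shares over all annotated genes pool their reads, so the most read genes weigh most and a typical gene is not described. Atp2a1 alone had 228292 of these 1436578 reads in replicate 1 and 205059 of 1124063 in replicate 2.

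Most Rab genes had a single leading transcript. Among 4657 genes with 20 or more reads in both libraries, 20 were members, and the most read intron chain was an annotated transcript in all 20. Its share of the gene's reads had a median of 88.9% over these members and 77.0% over all such genes. It reached 75% or more in 17 of the 20 members, against 52.7% of all such genes. By Fisher's exact test of the leading chain's reads, the share differed between the libraries in 0 of 20 members at an adjusted p below 0.05, against 2.58% of all such genes, and 3 of 20 members had an unadjusted p below 0.05, against 479 of all 4657 genes. The lowest adjusted p by Fisher's exact test was that of Rab7, whose leading transcript Rab7-205 held 83.5% (interval 79.0 to 87.4) in replicate 1 and 91.6% (87.7 to 94.6) in replicate 2, at 0.115. Rab10-201 had the highest share, 94.8% and 97.2%.

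**Figure D4:**
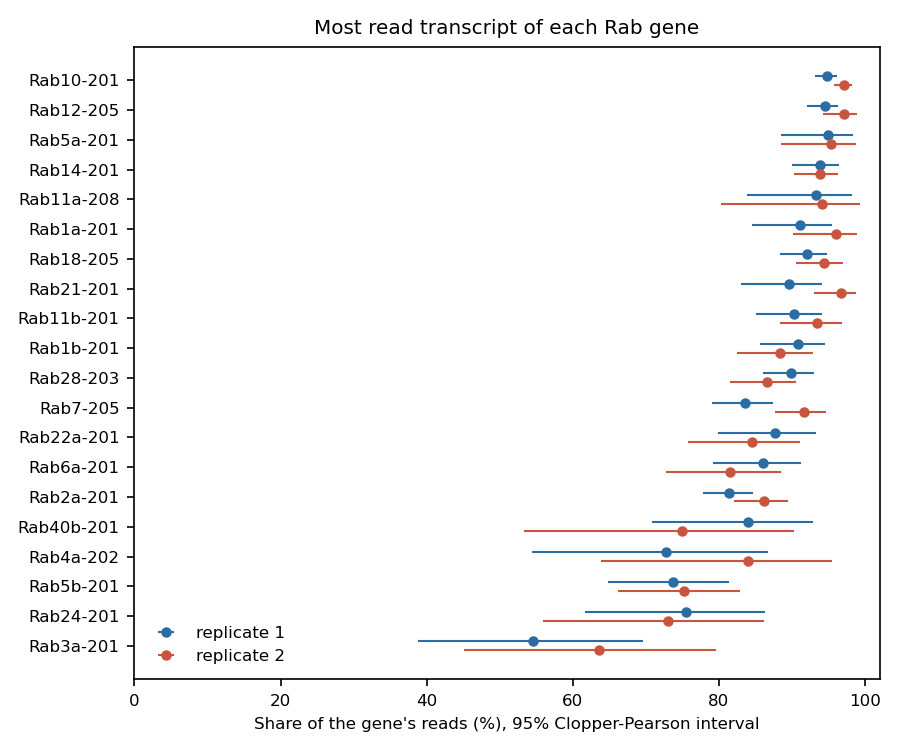
Share of each gene's reads held by its most read transcript, in %, for the 20 Rab genes with 20 or more reads in both libraries, with 95% Clopper-Pearson intervals. Rab10-201 is highest, at 94.8% and 97.2%, and Rab3a-201 lowest, at 54.5% and 63.6%.

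The 5 members with the lowest leading share were Rab3a, Rab24, Rab5b, Rab4a and Rab40b. Rab3a-201 held 54.5% of 44 reads in replicate 1 and 63.6% of 33 in replicate 2. A further 25.0% and 24.2% of Rab3a reads left the first exon at an unannotated donor 6 bases downstream, with an intron at chr8:70754870-70755855, which ends just before the start codon. Rab5b-201 held 73.7% and 75.2%, and an unannotated donor 157 bases downstream in the first exon, also before the start codon, was used by 17.8% (interval 11.4 to 25.9) and 7.08% (3.11 to 13.5) of Rab5b reads. Rab24-201 held 75.5% and 73.0%, and a chain that kept 1 annotated intron held 9.43% and 8.11%, or 5 and 3 reads. Rab4a-202 held 72.7% and 84.0%, and an annotated acceptor that shortens a coding exon by 38 bases was used by 5 reads and 1 read. Rab40b-201 held 42 of 50 reads in replicate 1 and 18 of 24 in replicate 2, and no other Rab40b chain had over 2 reads in a library. At these depths the intervals of the shares in these 5 genes overlapped between the libraries, which does not show that the shares are equal.

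Rab2a had another kind of minor model. Models with a single exon, all overlapping the annotated last exon, held 15.6% of Rab2a reads in replicate 1 (interval 12.6 to 18.9) and 10.8% in replicate 2 (7.82 to 14.5). The most read was 257 bases long in replicate 1, at chr4:8606408-8606664, with 74 reads, and its counterpart in replicate 2 had 31 reads. Both lie inside the last exon and were classed as incomplete matches to an annotated transcript, so they are not shown to be a separate form. Rab2a-201 held 81.4% and 86.1% of reads.

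Skips of a coding exon of Rab10 and of Rab5b were seen in both libraries. Events were listed where both libraries together gave at least 5 reads, a minimum chosen after the values were seen, and their shares are of reads that span the event. The exon of Rab10 is shown in capitals with 20 bases of the exon on each side, since 3 does not divide its length and the run shown above for switch 2 falls in it, beginning in the exon before.
Rab10-201, chr12:3256867-3257005, minus strand: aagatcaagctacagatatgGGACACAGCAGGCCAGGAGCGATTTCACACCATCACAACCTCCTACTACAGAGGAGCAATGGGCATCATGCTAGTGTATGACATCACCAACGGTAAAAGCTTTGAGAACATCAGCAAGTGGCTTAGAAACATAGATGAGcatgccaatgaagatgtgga
The 139-base exon of Rab10 was skipped in 10 reads and kept in 872 in replicate 1, a share of 1.13% (interval 0.545 to 2.08), and skipped in 6 and kept in 793 in replicate 2, a share of 0.751% (0.276 to 1.63). In Rab5b a 123-base coding exon, which 3 divides, was skipped by 4 and 2 reads, or 3.57% and 2%.

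Rab6a has a pair of coding exons of equal length of which a transcript holds either. The exons are shown whole, with the bases that differ in capitals, because this choice is the main isoform difference known for the gene.
Rab6a-201, chr7:100629838-100629943, plus strand: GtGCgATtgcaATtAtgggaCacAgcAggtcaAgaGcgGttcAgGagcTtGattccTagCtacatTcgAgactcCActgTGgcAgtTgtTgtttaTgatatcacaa
Rab6a-202, chr7:100629666-100629771, plus strand: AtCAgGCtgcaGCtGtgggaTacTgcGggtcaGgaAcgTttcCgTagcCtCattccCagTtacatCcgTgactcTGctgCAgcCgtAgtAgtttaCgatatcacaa
Both are 106 bases long, and they differ at 30 bases, which leaves 71.7% identical. The exon of Rab6a-202 was used by 4 reads in replicate 1, against 126 with the Rab6a-201 exon, a share of 3.08% (interval 0.845 to 7.69), and by 10 against 86 in replicate 2, a share of 10.4% (5.11 to 18.3). The Rab6a-201 exon was thus the main one in both libraries. The intervals overlapped, which does not show that the shares are equal.

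Rab28 differed at its coding end. Its most read transcript, Rab28-203, held 89.9% and 86.6% of reads and takes its stop codon from an exon of 95 bases at chr5:41626987-41627081. That exon was skipped in 9 and 6 reads, 3.10% (interval 1.43 to 5.81) and 2.78% (1.03 to 5.95) of the reads across it, which moves the end to the one shown above for Rab28-201. An unannotated exon of 62 bases at chr5:41632151-41632212, within the coding region, was held by 6 reads in replicate 1, 2.07% (0.763 to 4.45), and by 14 in replicate 2, 6.25% (3.46 to 10.3).

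In Rab7 and Rab11b the minor forms were annotated or lay before the start codon. An annotated 87-base exon upstream of the Rab7 start codon was included by 13 and 7 reads, 4.59% and 2.70%. A first exon of Rab7 that ended 839 bases farther downstream was used by 12 reads and 1 read, 4.26% (interval 2.22 to 7.32) and 0.395% (0.010 to 2.18). These 2 intervals did not overlap. In Rab11b an annotated acceptor that shortens a coding exon by 75 bases was used by 7 and 4 reads, 3.95% and 2.72%, of which 7 and 3 were the annotated transcript Rab11b-203. The other events reported here, in Rab14, Rab5a, Rab10, Rab18, Rab2a and Rab7, had from 5 to 7 reads each, and the highest mean share among them was 3.38%, for the skip of a 255-base exon of Rab5a.

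**Figure D5:**
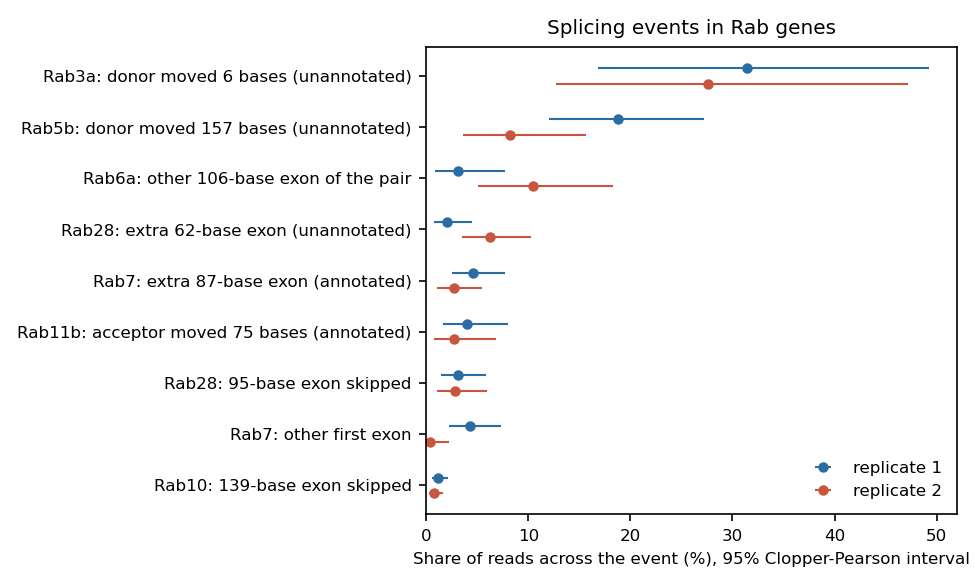
Share of reads that used 9 of the 10 events that had 11 or more reads in all, in %, with 95% Clopper-Pearson intervals, for replicate 1 and replicate 2. The first-exon donors of Rab3a, at 31.4% and 27.6%, and of Rab5b, at 18.8% and 8.25% of the reads that span the site, stand highest, and the skipped Rab10 exon, at 1.13% and 0.751%, is near the bottom.

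The regulators and effectors of Rabs gave a different count from the Rab genes themselves. Of 116 listed genes, 103 had reads and 75 were tested, and Fisher's exact test with the rule above called 11 higher and 1 lower in replicate 2, with 63 not called. That compares with 8.24% and 2.04% of all genes tested. The median log2 ratio of the 75 was 0.58, and 65 were above 0. Their tested transcripts were long, with a median of 4412 bases over the 70 with a length, against 2820 bases in the Rab genes and 2732 over all genes tested. Relative to genes of like length, 1 of these 70 was called higher and 0 lower, against 254 and 149 of 8625 genes. Evi5, among the 11 called higher, and Rabep2, the 1 called lower, had no read of an annotated transcript. They thus had no length and were not tested there. Either TMM or DESeq2 scaling left 3 of the 75 higher and 1 lower. Over all 9032 genes, TMM scaling gave 443 higher and 376 lower, and DESeq2 scaling 442 and 382.

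Of proteins that prenylate Rabs or draw them off membranes, grouped here with Rabif, 0 of 6 tested were called by Fisher's exact test. Their median log2 ratio was 0.03. Gdi2, a GDP dissociation inhibitor that keeps Rabs soluble, was at 94.7 and 86.9 CPM. The subunits of the geranylgeranyl transferase, Rabggtb and Rabggta, were at 34.5 and 27.3 CPM and at 18.6 and 12.8 CPM, and Rabif at 12.6 and 14.5 CPM.

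Of 24 exchange factors tested, 4 were called higher and 0 lower, with a median log2 ratio of 0.71. Dennd4b, a DENN-domain exchange factor, was at 131 and 272 CPM, with a log2 ratio of 1.05 (Fisher's exact test, adjusted p = 1.09e-14), and Sbf1 at 94.7 and 193 CPM, with 1.02 (Fisher's exact test, adjusted p = 4.16e-10). Dennd5a and Rab3gap2 were the other 2, at 1.14 and 1.48. Rabgef1, the exchange factor of Rab5, was at 164 and 216 CPM and was not called, and Ccz1, part of the exchange factor of Rab7, was at 47.0 and 39.2 CPM.

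Of 23 GTPase-activating proteins tested, 2 were called higher and 0 lower, with a median log2 ratio of 0.74. Tbc1d1, which acts on GLUT4-linked Rabs in muscle, had 38 and 93 reads, or 25.2 and 79.3 CPM, with a log2 ratio of 1.62 (Fisher's exact test, adjusted p = 1.30e-08), and 0.95 with no call relative to genes of like length. Its relative Tbc1d4, which acts on Rab10, was at 39.1 and 70.7 CPM, with a log2 ratio of 0.84, below the fold minimum. Evi5 was the other gene called, at 1.11. The most read were Tbc1d17, at 75.5 and 74.2 CPM, and Tbc1d9b, at 37.1 and 73.3 CPM, and Rabgap1 was at 41.1 and 62.2 CPM.

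Of 22 effectors tested, 5 were called higher and 1 lower, with a median log2 ratio of 0.54. Rab11fip5, which binds Rab11, had 34 and 116 reads, or 22.5 and 98.9 CPM, with a log2 ratio of 2.09 (Fisher's exact test, adjusted p = 4.45e-15), and it was the gene still called relative to genes of like length, at 1.58. Rab11fip3, another Rab11 effector, had 151 and 252 reads, with a log2 ratio of 1.09. Gcc2, Eea1 and Rufy3 were called at 1.09, 1.10 and 1.32 from 27 to 36 reads in replicate 2. Rilpl1, which binds Rab8, Rab10 and Rab12 once LRRK2 has phosphorylated them, was the most read effector, at 218 and 260 CPM, and Uso1, Optn and Golga2 were at 106 and 154, 81.5 and 125, and 65.6 and 92.1 CPM. Rabep2, a Rab5 effector, was called lower, with 30 reads in replicate 1 and none in replicate 2, at least 7.77-fold lower at the floor of 3 reads. Of those 30 reads, 28 belonged to a single-exon model at chr7:126446047-126449245 that lies opposite Atp2a1, which is on the minus strand. With annotated transcripts alone Rabep2 had no reads and could not be tested.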

How the data were processed

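The authors deposited raw read counts for each transcript model, in a table for each library, together with the model annotation. Per the deposited README files, reads were aligned to mm10 and filtered, with GENCODE M21 as the annotation, and TALON is named in the deposited annotations. The sources used here do not give the aligner, versions, platform or model filters. Group and replicate number of each sample came from the labels.

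All read classes of an annotated gene were added up here, and the sum was divided by the total of the table (CPM). The main test of genes was Fisher's exact test (two-sided) of a gene's reads against the rest of the table, for genes reaching 10 reads in both libraries together. P-values were adjusted by Benjamini-Hochberg, and a call needed an adjusted p under 0.05 and a 2-fold ratio of CPM + 1. This pseudocount understates ratios of low genes. The share of the leading intron chain was tested the same way where each library gave at least 20 reads. Chains were matched across libraries, with unannotated single-exon models pooled per gene. Length-centred ratios subtract the median of 20 bins of annotated length. Shares carry exact 95% Clopper-Pearson intervals, which cover counting error only, because copies of a molecule cannot be told from separate molecules. Whether the libraries came from separate animals is not stated, so the spread may be technical.

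Full values are given for the 12 most read members, for any member called, for the 5 members of at least 50 reads with the lowest leading share and for chains of at least 10% of a gene's reads. Of the regulators, they are given for those called and the 5 most read of each class. The members and lists were chosen with earlier results of these data known. Sequences and coordinates are from GENCODE M21 on GRCm38 (mm10). Alternatives covered TMM (edgeR 4.0.16) and DESeq2 (1.42.0) scaling in R 4.3.3, filters, pseudocount, read classes, thinning and length. The other tools were scipy 1.17.1, numpy 2.4.6, pandas 2.3.3 and biopython 1.88 under Python 3.11.15. The tests were checked on simulated data. A few listed items are not reported here.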

Additional observations from a re-analysis of the deposited data

Results flagged for a closer look

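Reads outside the members' own models were found at some Rab loci above the floor of 3 reads in at least 1 library. Antisense models, which lie on the strand opposite an annotated gene, held 38 reads in replicate 1 and 15 in replicate 2 at Rab7, 10 and 9 at Rab1a, 6 and 12 at Rab30, 1 and 7 at Rab28, 4 and 2 at Rab18 and 3 and 4 at Rab12. At Rab30 the antisense reads outnumbered the 2 sense reads in each library. Over all members, antisense models held 82 and 73 reads at 25 loci, and they are not in the members' counts. Rab10os, an annotated gene opposite Rab10, had 26 and 30 reads, and the pseudogene Rab11b-ps2 had 3 and 6. Their part in the members' counts was not tested.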

How the results depend on the processing

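The count of Rab genes called higher, 0 as reported, was 1 when reads of annotated transcripts alone were counted: Rab21, at a log2 ratio of 1.05. The family's share of reads was 0.463% under that choice, because its denominator holds fewer reads, and 0.305% to 0.319% with 1 library left out. Regulators called higher numbered 11 as reported, 3 with TMM and 3 with DESeq2 scaling, 1 at a fold minimum of 4, 7 with a pseudocount of 5 CPM and 1 when centred on length; regulators called lower numbered 1, and 0 with annotated transcripts alone or centring, where Rabep2 could not be tested because it had no read of an annotated transcript. The other 34 of 43 alternatives for counts and the family share were on the same side or within 1.5 times. Of 96 alternatives for the log2 ratios of the 12 most read members, 14 changed sign, none of them past the call rule under that alternative. With TMM scaling these were Rab7 at -0.068, Rab1b at -0.0011 and Rab11b at -0.11. With DESeq2 scaling they were Rab10 at -0.0035, Rab7 at -0.072, Rab1b at -0.0055 and Rab11b at -0.11. With annotated transcripts alone they were Rab2a at 0.012, Rab28 at 0.054, Rab18 at 0.12 and Rab6a at 0.046, and centred on length Rab10 at -0.17, Rab28 at 0.092 and Rab11b at -0.58. The cause was not tested. Calls over all genes were 443 higher and 376 lower with TMM scaling, 254 and 149 of 8625 when centred, against 744 and 184. With 1 group of 2 libraries, no spread between replicates of a condition enters a test, and members with few reads have wide intervals, such as Rab8b at -0.14 to 3.38. No paired analysis was possible because there is 1 group.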
